A study of Mus musculus with 4 samples.

Results

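Matrix metalloproteinases (MMPs) and the proteins that restrain them were followed in RNA from lung smooth muscle cells (SMCs). The genes were 6 proteases, *Mmp2*, *Mmp3*, *Mmp12*, *Mmp14*, *Mmp19* and *Mmp23*, and 4 inhibitors, *Timp1*, *Timp2*, *Timp3* and *Reck*. They were taken by gene symbol, and the choice was made with earlier results of these data known. All 10 were among the 21462 genes of the deposited table, and all 10 reached the minimum level for testing, as did 16659 genes in total.

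MMPs are zinc-dependent endopeptidases that cut collagen, elastin and other proteins of the extracellular matrix. Most are made as inactive precursors whose propeptide blocks the active site until it is cleaved. Tissue inhibitors of metalloproteinases (TIMPs) bind the active site of MMPs, and RECK is an inhibitor anchored to the cell membrane. In the airway wall these enzymes are known for matrix remodelling around smooth muscle, and several are also made by fibroblasts, macrophages and neutrophils.

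The study compared 2 control libraries (genotype WT) with 2 libraries from mice whose *Tet3* gene was inactivated (genotype Mut, here called Tet3 mutant). TET3 is an enzyme that oxidizes 5-methylcytosine to 5-hydroxymethylcytosine, and the question was how its loss changes transcription in SMCs. All animals were on the C57BL/6 background. By the study's methods, mutants carried floxed *Tet3* alleles and a tamoxifen-inducible Cre recombinase driven by the α-smooth muscle actin promoter, with a ROSA26 tdTomato reporter, and tamoxifen was given to adult mice. As the study's general rule, controls lacked the floxed allele but carried the Cre, the reporter or both. Control cells for RNA were sorted by the reporter too, which requires both. Cells of the blood lineage were removed with CD45 and Ter-119 beads before tdTomato-positive cells were sorted. The reporter marks any cell in which the promoter was active when tamoxifen was given, so the sort is not limited to 1 type of SMC. Age at harvest is not given in the sources used here.

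Values are normalized counts per gene as scaled and rounded by the authors, and an estimated 6.32 to 7.56 M reads per library lay behind them. *Tet3* itself had normalized counts of 1847 and 1926 in the controls against 1534 and 1444 in the mutants, so both mutants lay below both controls, although transcripts were present in every library. Control replicate 2 stood apart from the other libraries in the sex-linked genes, with 2 normalized counts of *Xist* against 5214 to 6781 elsewhere, and 774 of the Y-linked *Ddx3y*, which was listed at 0 in the others. Sex is not in the labels. These values are as in a male for control replicate 2 and as in females for the other libraries, both mutants included. Sex is thus unbalanced between the groups, and it cannot be told apart from other differences of control replicate 2. All 10 smooth muscle markers were present, the lowest being *Cnn1* with a mean of 122.8 normalized counts. Markers of other lung cell types were present as well, some at higher levels. Summed per library, the 10 smooth muscle markers had 9990 to 12320 normalized counts. The sums were 26209 to 32975 for 13 fibroblast, 11307 to 25097 for 10 alveolar type 2 and 136 to 426 for 5 B cell markers. The lists differ in genes, so these sums are not shares of cells. The values below are those of the sorted cells as a whole. In bulk RNA, fewer cells of a type and less RNA per cell cannot be told apart.

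Both Tet3 mutant libraries lay above both controls for 5 of the 6 proteases, all but *Mmp12*, and for 1 of the 4 inhibitors, *Timp1*. The same held for 19.6% of all genes tested. *Mmp3* stood at 1.60-fold the control level with little spread within either group. *Timp1* stood at 2.14-fold, a value that varied with the library left out. None of the 10 genes passed the test after adjustment over all genes, and 0 of 16659 genes did (0% of those tested). The study itself used DESeq2 and reported differentially expressed genes after adjustment, so this 0 holds only for the test used here. The test was limma's moderated two-sided test on log2(normalized count + 1), with Benjamini-Hochberg adjustment, and fold changes below are mutant over control on that scale. At an unadjusted p under 0.05 there were 3 of 10 genes, *Mmp3*, *Mmp23* and *Timp1*, each of them higher in mutants. Over all genes tested 6.68% met that mark in either direction and 3.83% were higher and met it. With 2 against 2 libraries, an exact permutation test of a single gene cannot go below p = 0.333, so limma's test was the only one per gene.

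**Figure D1:**
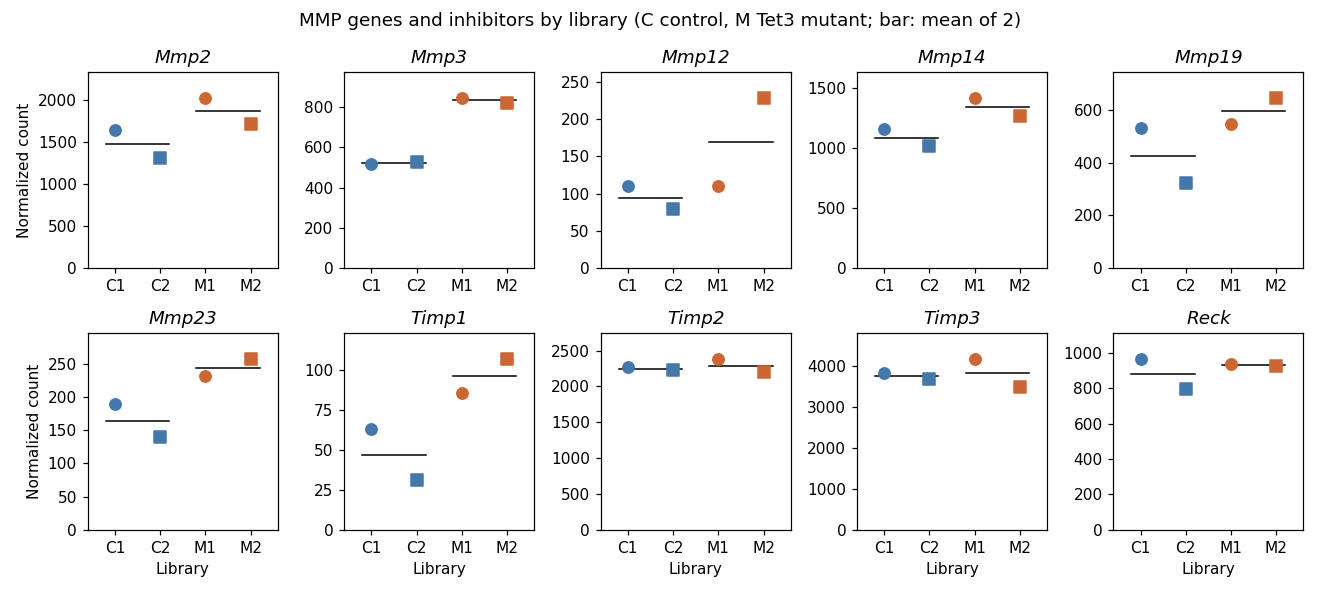
Normalized counts (vertical axes, each starting at 0) of the 6 MMP genes and 4 inhibitors in each library (horizontal axes: C1 and C2, control replicates 1 and 2; M1 and M2, Tet3 mutant replicates 1 and 2). Bars are means of 2 libraries. The *Mmp3* panel shows controls at 517 and 526 and mutants at 846 and 819, while controls and mutants overlap for *Mmp12*, *Timp2*, *Timp3* and *Reck*.

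*Mmp3* (ENSMUSG00000043613, chr9:7445822-7455975 on GRCm38, plus strand) encodes stromelysin-1, which cleaves proteoglycans and fibronectin and can activate other MMP precursors. Control replicates 1 and 2 gave 517 and 526 normalized counts, against 846 and 819 for Tet3 mutant replicates 1 and 2. The groups did not overlap, and the distance between them was far larger than the spread within either. The means were 521.5 ± 6.36 in controls and 832.5 ± 19.1 in mutants (SD, n = 2 each). Its log2 fold change was 0.67 (SE 0.11, 95% interval 0.40 to 0.94). By limma the unadjusted p was 0.00134 and the adjusted p 0.681. Leaving out any 1 library kept the log2 fold change of *Mmp3* between 0.65 and 0.70, the narrowest such range among the 6 proteases.

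The promoter of *Mmp3* is shown because this gene had the smallest limma p of the 10, and that of its neighbour *Mmp12* because it carries the same motif. Both sequences are from RefSeq on GRCm38.p6, plus strand, and each holds the 120 bases before an annotated transcript start. For *Mmp12*, which has more than 1 annotated start, the downstream one is shown. The upstream *Mmp12* start lacks the motif. Capitals mark TGAGTCA, the binding motif of the AP-1 transcription factor family.
*Mmp3*, chr9:7445702-7445821: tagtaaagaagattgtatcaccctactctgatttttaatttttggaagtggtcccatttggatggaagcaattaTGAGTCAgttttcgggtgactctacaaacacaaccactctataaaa
*Mmp12*, chr9:7347254-7347373: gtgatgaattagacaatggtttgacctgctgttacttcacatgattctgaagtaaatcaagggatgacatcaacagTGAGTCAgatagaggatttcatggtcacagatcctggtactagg

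AP-1 motifs, searched as TGAGTCA or TGACTCA and hence on both strands, stood 46 bases before the *Mmp3* start and 44 bases before the downstream *Mmp12* start. Over the 250 bases before the start, 5.16% of the 27025 genes with a RefSeq promoter held this motif. Of the 10 genes followed, 8 had a promoter sequence and 2 held the motif. *Mmp2* and *Mmp19* had none in the sequence table. Among MMP genes generally, the motif was present in 7 of 10 with a promoter on chromosome 9 and in 0 of 8 elsewhere. Those with it were *Mmp1a*, *Mmp1b*, *Mmp3*, *Mmp7*, *Mmp10*, *Mmp12* and *Mmp13*. The TATA motif TATAAA, searched on the gene's strand and without overlap with the AP-1 motif, was found in 8.94% of all genes and, among the 8 genes with a promoter sequence, only in *Mmp3*. Such matches describe letters in the sequence and are not evidence of binding.

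*Mmp23* (ENSMUSG00000029061, chr4:155650655-155653384, minus strand) encodes a membrane-tethered MMP that lacks the C-terminal domain typical of the family. Its values were normalized counts of 189 and 139 in the controls against 231 and 257 in the mutants. Both mutants were above both controls. The log2 fold change of *Mmp23* was 0.59 (SE 0.21), the limma unadjusted p was 0.0394 and the adjusted p was 0.681.

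*Mmp14* (ENSMUSG00000000957, chr14:54431612-54445364, plus strand) encodes MT1-MMP, a membrane-bound collagenase that activates the MMP-2 precursor together with TIMP-2. It had normalized counts of 1159 and 1019 in the controls against 1424 and 1273 in the mutants. *Mmp2* (ENSMUSG00000031740, chr8:92827291-92853420, plus strand), which encodes gelatinase A, the target of that activation, had 1648 and 1307 in the controls against 2031 and 1713 in the mutants. For both genes the mutants lay above the controls, but the lower mutant was close to the higher control. The log2 fold change was 0.31 for *Mmp14* (95% interval from -0.0065 to 0.62) and 0.35 for *Mmp2* (from -0.065 to 0.76), each with a limma adjusted p of 0.681.

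*Mmp19* (ENSMUSG00000025355, chr10:128790910-128800824, plus strand) encodes an MMP that acts on basement membrane proteins. Its normalized counts were 529 and 323 in the controls against 546 and 646 in the mutants. The groups did not overlap, but the controls lay farther apart than control replicate 1 and the mutants. The log2 fold change of *Mmp19* was 0.52 (SE 0.26; limma adjusted p 0.683). On the opposite strand, exons of *Tmem198b* cover 22.3% of the *Mmp19* exon bases, and use of strand in counting is not stated. Reads that overlapped several genes were excluded from counting, so without strand those in the shared bases would be missing from the *Mmp19* value.

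*Mmp12* (ENSMUSG00000049723, chr9:7344381-7369499, plus strand) encodes macrophage elastase, an elastin-degrading enzyme known mainly from macrophages. It had normalized counts of 111 and 79 in the controls against 110 and 229 in the mutants. Only Tet3 mutant replicate 2 was high, and mutant replicate 1 was level with control replicate 1. The log2 fold change of *Mmp12* was 0.76 (SE 0.41; limma adjusted p 0.689), and it was 0.23 without Tet3 mutant replicate 2. The summed level of 15 macrophage markers was also highest in that library, at 12086 normalized counts against 10639 in mutant replicate 1 and 9944 and 8326 in controls. Of these 15 markers, 14 had a log2 fold change above 0 (49.0% of all genes tested). The median over the list was 0.41, and 0.25 without control replicate 2. Single markers did not all follow the sum. *Marco* (119 and 17 in controls, 77 and 82 in mutants) and *Chil3* (776 and 136, 610 and 757) were highest in control replicate 1. *Lyz2* had 1120 and 1361 in controls against 1197 and 1033 in mutants, and was lowest in mutant replicate 2. All 15 were detected, the lowest being *Marco* with a mean of 73.8. Their part in the *Mmp12* value was not tested.

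*Timp1* (ENSMUSG00000001131, chrX:20870166-20874735, plus strand) encodes a secreted inhibitor of most MMPs and is known as an inducible TIMP. Its normalized counts were 63 and 31 in the controls against 86 and 107 in the mutants. Both mutants were above both controls, and the 2 controls differed about as much as the higher control and the mutants did. The log2 fold change was 1.10 (SE 0.41, 95% interval 0.047 to 2.15; limma unadjusted p 0.0435, adjusted p 0.681). Without control replicate 2 the *Timp1* log2 fold change was 0.60, below the 0.69 of *Mmp3*, and without control replicate 1 it was 1.60. The gene is on the X chromosome, and the lower control is the library with 2 normalized counts of *Xist*. *Timp1* lies inside *Syn1*, which is on the opposite strand, with no shared exon bases, and *Syn1* had 8 to 22 normalized counts per library.

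*Timp2* (ENSMUSG00000017466, chr11:118301069-118355740, minus strand), whose protein both inhibits MMP-2 and takes part in its activation by MT1-MMP, had normalized counts of 2269 and 2225 in the controls against 2383 and 2195 in the mutants. *Timp3* (ENSMUSG00000020044, chr10:86300372-86349506, plus strand), whose protein is bound to the matrix and also inhibits ADAM proteases, had 3831 and 3679 in the controls against 4174 and 3479 in the mutants. *Reck* (ENSMUSG00000028476, chr4:43875530-43944806, plus strand) had 965 and 795 in the controls against 939 and 927 in the mutants. The mutants spanned both controls for *Timp2* and *Timp3* and lay between them for *Reck*. The log2 fold changes were 0.03, 0.02 and 0.09 in this order, with 95% intervals from -0.23 to 0.29, from -0.31 to 0.35 and from -0.25 to 0.43. The limma adjusted p were 0.955, 0.971 and 0.865. Exons of *Syn3* on the opposite strand cover 21.3% of the *Timp3* exon bases, and the same limit holds there.

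**Figure D2:**
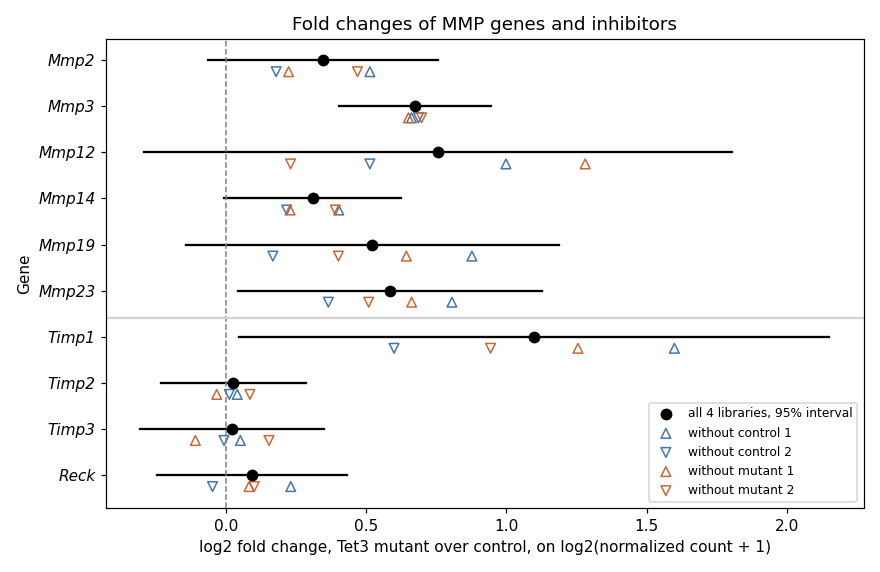
Log2 fold change of Tet3 mutant over control (horizontal axis, on log2(normalized count + 1)) for each gene (vertical axis). Black points and lines are the fit of all 4 libraries with its 95% interval, and open triangles are fits without 1 library. Intervals of *Mmp3*, *Mmp23* and *Timp1* lie above 0, and the triangles of *Mmp3* stay between 0.65 and 0.70.

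Read together, both mutants were above both controls in 6 of 10 genes and below both in 0 of 10. Over all genes tested these shares were 19.6% and 19.5%. Such separation was not particular to these genes. Both mutants were above both controls in 10 of 15 macrophage, 7 of 10 smooth muscle and 2 of 10 endothelial markers. In 14 ADAM and iRhom genes they were above both in 8 and below both in 3. In 10 alveolar type 2 markers they were above both in 0 and below both in 8. Of the 10 genes followed, 10 had a log2 fold change above 0, against 49.0% of all genes tested. The median log2 fold change was 0.43 over the 10 genes and -0.01 over all genes tested. Over the 6 proteases the median was 0.55 and over the 4 inhibitors 0.06.

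The size of these values depended on control replicate 2. It was the lowest of the 4 libraries in 7 of the 10 genes, against 33.1% of all genes tested. Without it, the median over the 10 genes was 0.20, over the proteases 0.29 and over the inhibitors 0.0019. Both mutants were still above control replicate 1 in 6 of 10 genes, where 32.4% of all genes tested met this. Both were above control replicate 2 in 8 of 10 genes, and in 39.9% of all genes tested. For single genes the log2 fold change without control replicate 2 was 0.69 for *Mmp3*, 0.60 for *Timp1*, 0.51 for *Mmp12*, 0.36 for *Mmp23*, 0.22 for *Mmp14*, 0.18 for *Mmp2* and 0.17 for *Mmp19*. *Mmp3* was thus the 1 protease whose value was as large without that library as with it. Fibroblast markers, which include genes of cells that make several of these proteins, had summed levels of 30921 and 26209 normalized counts in the controls against 32975 and 29686 in the mutants. The low value was again that of control replicate 2. Of 13 fibroblast markers, 13 were detected. Among them, 10 had a log2 fold change above 0 (49.0% of all genes tested). In 4 of them both mutants were above both controls (19.6% of all genes tested). The median over the 13 markers was 0.17, and 0.03 without control replicate 2. Their part in the MMP values was not tested.

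Levels of different genes were compared per kilobase of exon, using exon lengths from GENCODE M21, whose coordinates matched the deposited ones for all 10 genes. *Timp2* was the most abundant of the 10 genes, with 563 to 612 normalized counts per kb across libraries. *Mmp2* followed with 388 to 602, *Timp3* with 427 to 513 and *Mmp3* with 287 to 470. *Timp2* was above the other 3 in each of the 4 libraries, and its range lay wholly above those of *Timp3* and *Mmp3*. The ranges of *Mmp2*, *Timp3* and *Mmp3* overlap between neighbours, but they hold libraries of both groups. In the controls *Timp3* (470 and 452) was above *Mmp3* (287 and 292). In the mutants *Timp3* had 513 and 427 against 470 and 455 for *Mmp3*. *Mmp2* was below *Timp3* in control replicate 2 (388 against 452) and above it in each other library. *Mmp14* (171 to 239), *Reck* (166 to 202) and *Mmp19* (91.4 to 183) formed a middle group with overlapping ranges, which lay wholly below those of the first 4. *Mmp23* (59.4 to 110) and *Timp1* (34.9 to 120.5) overlapped each other and the lower end of *Mmp19*. *Mmp12* was lowest, with 10.9 to 31.6 per kb and below every other one of the 10 in each library. Among 16645 genes with a known exon length, the mean level per kb of *Timp2*, *Mmp2*, *Timp3* and *Mmp3* lay at or above percentile 98.2, and that of *Mmp12* at percentile 22.8.

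**Figure D3:**
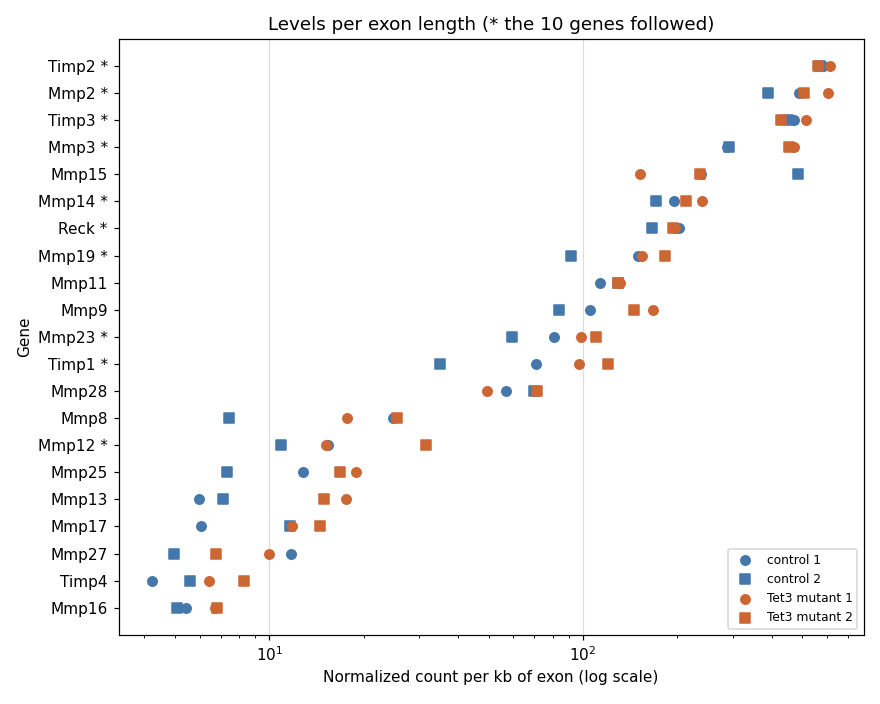
Normalized counts per kilobase of exon (horizontal axis, log scale) in the 4 libraries for the genes followed (marked with an asterisk) and the other MMP and TIMP genes in the table other than *Mmp24* (vertical axis, ordered by mean). *Timp2*, *Mmp2*, *Timp3* and *Mmp3* are the top 4, and *Mmp12* has the lowest level of the 10 genes followed.

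Summed RNA of the proteases was also set against that of the TIMPs. Summed over the 6 proteases, the level came to 1216 and 1012 normalized counts per kb for the controls against 1580 and 1501 for the mutants. The sum of *Timp1*, *Timp2* and *Timp3* was 1124 and 1058 in the controls against 1221 and 1111 in the mutants, with the groups overlapping. The ratio of the 2 sums was 1.08 and 0.957 in the controls against 1.29 and 1.35 in the mutants, so that the mutants lay above both controls. The protease sum holds only the 6 genes followed, and the ratio depends on that choice. Of the MMP genes left out, *Mmp15* was the most abundant. It had 237 and 484 normalized counts per kb in the controls against 152 and 237 in the mutants. *Mmp9*, also left out, went the other way, with 105 and 83.6 in the controls against 168 and 145 in the mutants. This ratio is a description of RNA levels in these 4 libraries and was not tested.

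Other members of both families were read from a list of 18 genes, of which 12 were in the table and 11 tested. None passed at the adjusted threshold. At an unadjusted limma p under 0.05, 2 of 11 were higher, as were 3.83% of all genes tested. Both mutants were above both controls in 6 of 11 and below in 1 (19.6% and 19.5% of all genes tested). The median log2 fold change of this list was 0.57, and 0.31 without control replicate 2. *Mmp9*, which encodes gelatinase B and is abundant in neutrophils, had normalized counts of 372 and 296 in the controls against 593 and 514 in the mutants, which is a log2 fold change of 0.73 (SE 0.17; limma unadjusted p 0.00706, adjusted p 0.681). *Mmp13*, which encodes collagenase-3, had 16 and 19 in the controls against 47 and 40 in the mutants, which is a log2 fold change of 1.27 (SE 0.35; limma unadjusted p 0.0150, adjusted p 0.681). Both genes separated the groups, at low counts in the case of *Mmp13*.

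Of the same list, *Mmp25*, a membrane-type MMP known from leukocytes, had 68 and 39 in the controls against 100 and 89 in the mutants. *Mmp15*, a membrane-type MMP, went the other way, with 1280 and 2610 in the controls against 821 and 1277 in the mutants, and 1 control was far above the other libraries. *Timp4* was low throughout, with 25 and 33 in the controls against 38 and 49 in the mutants. Beside *Mmp9*, the summed level of 5 detected neutrophil markers, counted without MMP genes, was 687 and 520 in the controls against 1346 and 790 in the mutants. The list held 6 such markers, and the other one, *Ly6g*, was not among the deposited genes. All 5 detected markers had a log2 fold change above 0 (49.0% of all genes tested). In 4 of these markers both mutants were above both controls (19.6% of all genes tested). The lowest of the 5 markers was *Retnlg* with a mean of 44.5. Their part in the *Mmp9* value was not tested.

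*Mmp3* and *Mmp12* belong to a cluster of MMP genes on chromosome 9, of which 5 were in the table, in the order *Mmp13* (from 7272514), *Mmp12*, *Mmp3*, *Mmp8* (from 7558456) and *Mmp27* (to 7581885). Within the cluster, *Mmp13* and *Mmp3* had both mutants above both controls (19.6% of all genes tested), whereas *Mmp12*, *Mmp8* and *Mmp27* did not. Counts of *Mmp13*, *Mmp8* and *Mmp27* were low. *Mmp8*, the neutrophil collagenase, had normalized counts of 60 and 18 in the controls against 43 and 62 in the mutants, and *Mmp27* had 26 and 11 in the controls against 22 and 15 in the mutants.

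Genes that activate MMPs or clear them were read from a list of 30 genes, of which 27 were in the table and 20 tested. None passed at the adjusted threshold. At an unadjusted limma p under 0.05, 3 of 20 were higher and 2 lower. Over all genes tested, 6.68% met that mark in either direction. The median log2 fold change of the list was 0.13, or 0.0089 without control replicate 2. The higher genes were *Thbs2*, which encodes thrombospondin-2, a protein that binds MMP-2 for uptake, and the plasminogen activators *Plau* and *Plat*. *Thbs2* had normalized counts of 252 and 389 in the controls against 560 and 549 in the mutants. *Plau* had 173 and 176 in the controls against 243 and 288 in the mutants, and *Plat* had 601 and 538 in the controls against 881 and 710 in the mutants. All 3 had both mutants above both controls, with log2 fold changes of 0.82, 0.60 and 0.48 and a limma adjusted p of 0.681 each. The lower genes were the proprotein convertase *Pcsk7* (516 and 507 against 402 and 378) and *Lcn2* (423 and 585 against 158 and 352), whose protein binds MMP-9, the latter named after its values were seen.

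ADAM proteases, many of which TIMP-3 also inhibits, and their iRhom partners were read from a list of 14 genes, all tested. None passed at the adjusted threshold, and the median log2 fold change of the list was 0.18. At an unadjusted limma p under 0.05, 2 of 14 were higher and 0 lower, where 6.68% of all genes tested met that mark in either direction. The 2 were *Adamdec1* (15 and 15 normalized counts in controls, 35 and 36 in mutants) and *Adam28* (65 and 54, 111 and 87). Next by p were *Adam23*, with 504 and 401 in the controls against 644 and 544 in the mutants, and the iRhom gene *Rhbdf2*, with 686 and 862 in the controls against 615 and 638 in the mutants.

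**Figure D4:**
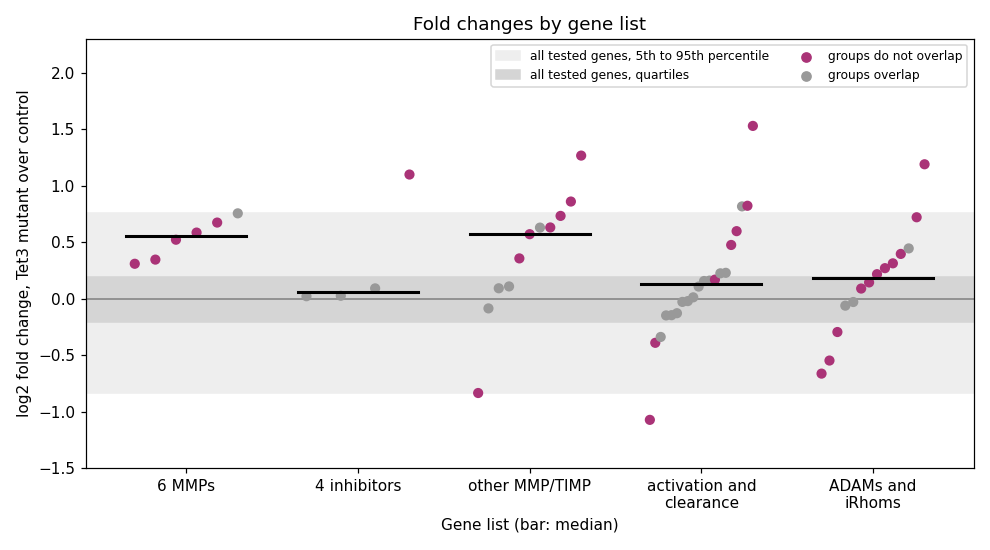
Log2 fold change of Tet3 mutant over control (vertical axis) for each tested gene of 5 lists (horizontal axis), with the list median as a bar. Grey bands give the quartiles (-0.21 to 0.19) and the 5th to 95th percentiles (-0.84 to 0.76) of all genes tested, and coloured points are genes whose groups do not overlap. The 6 proteases all lie above the upper quartile, while 3 of the 4 inhibitors lie between the quartiles.

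Medians of the remaining marker lists lay on both sides of 0. The median log2 fold change was 0.49 for smooth muscle, 0.42 for pericyte, 0.08 for endothelial, -0.71 for alveolar type 2, -0.23 for alveolar type 1, 0.79 for club and ciliated cell, -0.39 for mesothelial, 1.13 for T cell, 0.60 for B cell and -0.19 for mast cell markers, the last from 2 tested genes of 6. No gene of these lists passed at the adjusted threshold. Control replicate 2 was the lowest library for T cell markers, at 248 normalized counts in sum against 808 to 900 elsewhere. Without that library, the median turned to -0.59 for B cell, -0.01 for endothelial and 0.04 for alveolar type 1 markers. It was 0.17 for T cell, -0.39 for alveolar type 2, -1.22 for mesothelial, 0.74 for smooth muscle, -0.32 for mast cell, 0.44 for pericyte and 0.83 for club and ciliated cell markers. The mast cell marker *Fcer1a* was near 0, with a mean of 2.5. Summed levels in controls and mutants were 9990 to 11001 and 11462 to 12320 normalized counts for smooth muscle, 15144 to 15283 and 15759 to 16231 for endothelial, and 16681 to 25097 and 11307 to 15141 for alveolar type 2 markers, with control replicate 2 highest for the last. The part of cell composition in the MMP and TIMP values was not tested.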

How the data were processed

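RNA of sorted lung SMCs was sequenced after ribosomal depletion from 2 control and 2 Tet3 mutant libraries, grouped and numbered by their titles. The study describes the libraries as separate animals. Per the labels and the study's methods, the authors trimmed reads with Trimmomatic (0.36), aligned them with STAR (2.6.0c) to mm10 (GRCm38), counted exonic reads per gene with featureCounts (Subread 1.6.0), without reads that mapped to several places or genes, and scaled counts with DESeq2. Use of strand is not stated. The deposited values are a score, namely those normalized counts after rounding. As they are not raw counts, no count model was used. The number of reads behind them was estimated from the scaling factor that best explains gaps and doublings among low values, and this estimator was checked on simulated libraries.

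Genes with a mean of at least 10 entered a limma fit (version 3.58.1, R 4.3.3) on log2(value + 1) (lmFit, eBayes with a trend), with p adjusted over the whole table by Benjamini-Hochberg (threshold 0.05). The fit was tested on simulated data that had the same small dispersion for every gene and no library that stood apart. That test checked the code and does not show how the fit behaves on these libraries. Intervals are 95% limma intervals. Medians and counts describe lists, without a test. Exon lengths are merged GENCODE M21 exons.

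The 10 genes, the lists and the tests were chosen with earlier results of these data known. All 10 genes are named. From other MMP and TIMP genes, activation and clearance genes and ADAM genes, the up to 4 of smallest p are named, with *Mmp9* and *Timp4*. The text names further genes, chosen after their values were seen. Marker lists were macrophage, fibroblast, smooth muscle, pericyte, endothelial, alveolar type 1 and 2, club and ciliated, mesothelial, neutrophil, T, B and mast cell genes. Alternatives changed the pseudocount (0.5 or 8) or the minimum mean (1 or 50), or used equal library totals, quantile normalization, no trend, the replicate number as a block and each library left out in turn.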

Additional observations from a re-analysis of the deposited data

How the results depend on the processing

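Under the 8 settings that kept all 4 libraries, the count of the 10 genes past the adjusted threshold stayed at 0, and all 80 log2 fold changes kept their direction (limma adjusted p from 0.271 to 0.981). Without the trend, 1 gene of 16659 was called (smallest limma adjusted p 0.0307), which is not among the 10, and *Mmp3* alone had an unadjusted p under 0.05; the cause was not tested. Of the 10 genes, those with an unadjusted p under 0.05 numbered 3 as reported (6.68% of all genes tested), 2 at a mean of at least 50 (6.85%), 4 with equal totals (6.91%) and 5 with quantile normalization (6.99%). Fits without 1 library assume that the lone sample of a group varies like the other group. In them, 0 genes were called, the median log2 fold change over the 10 genes ranged from 0.20 to 0.59, and 36 of 40 values kept their direction. The exceptions were *Timp2* (-0.034 to 0.085), *Timp3* (-0.11 to 0.15) and *Reck* (-0.049 to 0.23). In these fits 6 of the 10 and 3366 of all genes without control replicate 1, 1 of the 10 and 894 of all genes without control replicate 2, 2 of the 10 and 273 of all genes without Tet3 mutant replicate 1 and 1 and 414 without Tet3 mutant replicate 2 had an unadjusted p under 0.05. The genes with both mutants above every remaining control numbered 6 without control replicate 2 (32.4% of all genes tested) and 8 without control replicate 1 (39.9%), an alternative chosen after seeing the data, as were the counts at an unadjusted p. Equal totals moved the median of all genes from -0.01 to 0.04.

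Groups share replicate numbers. Same-numbered libraries correlated by 0.13 (Pearson) and 0.12 (Spearman) in their deviations from the group means over 16659 genes. With 2 libraries per group, such a value can neither show nor exclude pairing. In the fit with the replicate block, 0 genes were called, the median over the 10 genes was 0.43, and 5 of the 10 had an unadjusted p under 0.05 (9.83% of all genes tested), *Mmp2*, *Mmp3*, *Mmp14*, *Mmp23* and *Timp1*. Genes with few counts, such as *Timp1* and *Mmp12*, have the widest intervals.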
